A study of Danio rerio with 6 samples.

Results

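The VEGF ligands and receptors measured here are 10 genes: the ligand genes vegfaa, vegfab, vegfba, vegfc and vegfd, the receptor genes flt1, kdr, kdrl and flt4, and the co-receptor gene nrp1a. They were chosen by gene symbol, and each matched 1 of the 32057 rows of the deposited expression table. Zebrafish heads were collected at 2 days post-fertilization (dpf), and their poly(A) RNA was sequenced. Treated embryos had been kept from 10 hours post-fertilization (hpf) in 500 µg/L 6PPD, an antioxidant of tire rubber, and control embryos in the solvent DMSO. Both groups also received the pigment inhibitor 1-phenyl-2-thiourea (PTU, 0.003%) from 24 hpf. Each group held 3 biological replicates of 150 pooled heads, so a value is an average over many embryos. The title of the series names cerebrovascular defects after 6PPD, and the comparison of 6PPD with DMSO asks whether transcript levels of the VEGF system differed.

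VEGF-A is the main signal for endothelial cells to sprout and divide, and it acts through receptor tyrosine kinases of the VEGFR2 type on their surface. Zebrafish carry a pair of VEGF-A genes, vegfaa and vegfab, and a pair of VEGFR2-type receptor genes, kdr and kdrl. Flt1 (VEGFR1) binds VEGF-A tightly but signals weakly, and its soluble form limits the ligand that reaches the other receptors. VEGF-C acts mainly through Flt4 (VEGFR3) in venous and lymphatic sprouting, and VEGF-D is a related ligand. In the developing brain the ligands act together on vessels growing in from the head surface.

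None of the 8 VEGF genes tested passed the test for a difference between 6PPD and DMSO heads. The other members, vegfba and vegfd, were too low to be tested. The largest differences were in the direction of higher levels in 6PPD, in kdr, vegfab and vegfc, whose 3 DMSO libraries did not overlap the 3 6PPD libraries. The mean level of kdr in 6PPD was 1.45 times that in DMSO, that of vegfab 1.23 times and that of vegfc 1.24 times. The levels of vegfaa and flt1 in 6PPD were 0.957 and 1.02 times those in DMSO. Levels are in FPKM (fragments scaled by gene length and by library size). The test was limma on log2(FPKM + 1) for the 15320 genes that averaged 1 FPKM or more across all 6 libraries, with a threshold of 0.05 on the Benjamini-Hochberg adjusted p over all of them. Log2 fold changes are on that scale, which understates changes of low genes. Of all genes tested 3.41% were called (2.26% higher and 1.15% lower in 6PPD). In 26.3% the groups did not overlap (17.1% higher and 9.18% lower). Of the 8 VEGF genes tested 0 were called by limma and 0 had an unadjusted p under 0.05, against 20.3% of all genes tested. Of the 10 genes, 3 had groups that did not overlap, all higher in 6PPD and all among the 8 tested. The share of all genes tested with such groups and 6PPD higher was 17.1%. Of these 3 genes, kdr averaged 1 FPKM or more only through its 6PPD libraries. Whether the count differs from that share was not tested. Overlap was judged on FPKM as deposited. The factors of median-ratio scaling were 0.951 for DMSO replicate 1 and 1.06 for 6PPD replicate 1. These lie further apart than the kdr values of 1.074 and 1.105 FPKM in the same libraries. The separation of the kdr groups therefore depends on the scaling.

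The tissue is labelled as brain, but the samples were dissected heads, and the libraries held RNA of several head tissues. The endothelial markers cdh5 and pecam1 were detected at 2.97 to 5.61 FPKM in every library. The neuron markers elavl3 and snap25a, the rod opsin gene rho and the skin keratin gene krt4 were far higher, krt4 at 1755 to 3980 FPKM. Of the marker lists of other head tissues, limma called elavl3 and snap25a of 10 neuron genes, both higher in 6PPD. It also called rho and opn1sw1 of 9 retina genes and cldne and agr1 of 10 epidermis genes, all lower in 6PPD. Of 7 macrophage and neutrophil genes it called apoeb and lyz, both lower. It called 0 of 8 neural progenitor, 7 muscle and 7 blood genes, beside 3.41% of all genes tested. The unadjusted p was under 0.05 in 2 neuron (both higher), 5 retina (3 lower), 8 epidermis (7 lower) and 2 macrophage and neutrophil genes (both lower). It was so in 4 progenitor (3 lower), 2 muscle (both lower) and 2 blood genes (both lower), beside 20.3% of all genes tested. Log2 fold changes were above 0 in 6 of 10 neuron, 3 of 9 retina, 1 of 10 epidermis and 1 of 7 macrophage and neutrophil genes. The median log2 fold change of all genes tested was 0.06. In such a mixture, fewer cells of a type and less RNA per cell cannot be told apart. The table holds no read counts, so the depth behind a value is unknown. The third DMSO library stood apart from the other controls: on the first principal component (43.5% of the variance) it lay at -4.70, against -20.6 and -22.8 for DMSO replicates 1 and 2 and 15.3 to 17.0 for the 6PPD libraries. Without it 1134 genes were called, in place of 522, and 0 of the VEGF genes. Of the 522 calls 66.3% were higher in 6PPD, and this share was 45.5% after median-ratio scaling, 52.9% after quantile normalization and 51.5% after cyclic loess.

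The order of the levels per gene length was nrp1a, kdrl, vegfaa, vegfab, flt4, flt1, vegfc, kdr, vegfd and vegfba. The mean over the 6 libraries ran from 20.8 FPKM for nrp1a to 0.309 FPKM for vegfba. Not all steps of this order exceeded the spread between libraries. The level of nrp1a lay above that of kdrl, vegfaa above vegfab, and vegfab above flt4 in 6 of 6 libraries with ranges that did not overlap. The ranges of kdrl and vegfaa overlapped, as did those of flt4 and flt1, flt1 and vegfc, vegfc and kdr, kdr and vegfd, and vegfd and vegfba. Within libraries vegfc was above kdr in 6 of 6, kdrl above vegfaa in 5, flt4 above flt1 in 5, and flt1 above vegfc in 4. The ligand genes vegfaa and vegfab together made up 74.2% to 82.3% of the summed FPKM of the 5 ligand genes, with overlapping groups. Of the summed FPKM of the 4 receptor genes, kdrl made up 48.8% to 50.5% in DMSO and 51.3% to 53.7% in 6PPD, without overlap. These shares were not tested.

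**Figure D1:**
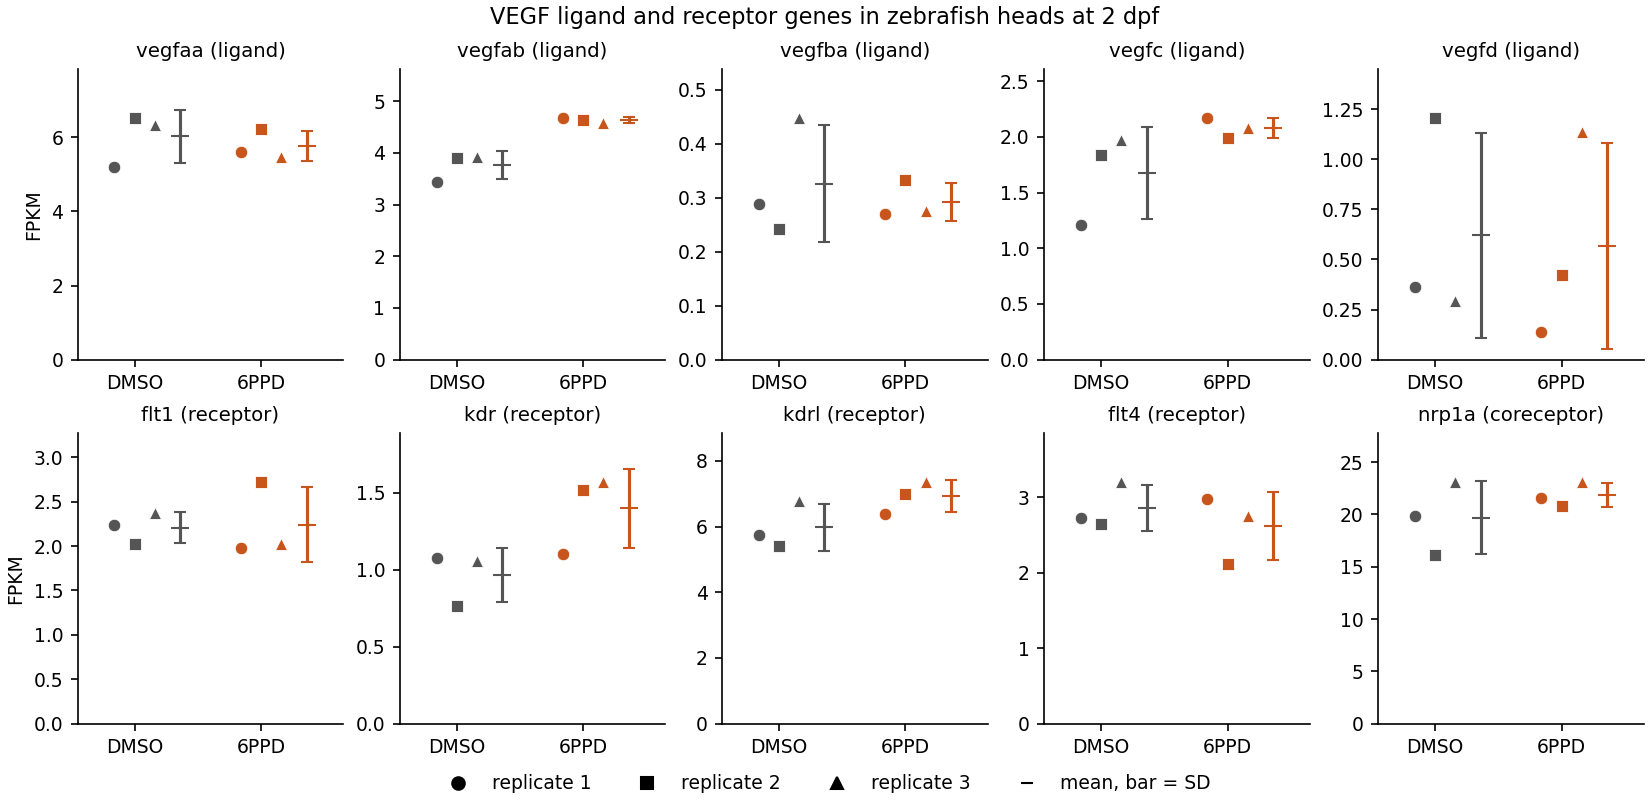
Levels of the 10 VEGF genes in FPKM (vertical axes, each from 0 and with its own scale) in the DMSO and 6PPD libraries; symbols are replicates, and the bars beside them the mean and SD of 3 libraries. The groups of vegfab, vegfc and kdr do not overlap and those of the other 7 genes do.

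The VEGF-A genes differed from each other in where the groups lay. The gene vegfaa (ENSDARG00000103542, GRCz11 chromosome 16, 4287542 to 4317879), the main zebrafish VEGF-A, measured 5.20, 6.53 and 6.34 FPKM in DMSO replicates 1 to 3 and 5.60, 6.23 and 5.47 FPKM in 6PPD replicates 1 to 3. The DMSO range covered the 6PPD range. Its log2 fold change was -0.05 ± 0.12 (SE), with a 95% interval from -0.31 to 0.21 (limma adjusted p = 0.836). The interval therefore left out a doubling or halving on this scale.

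The second VEGF-A gene, vegfab (ENSDARG00000034700, chromosome 4, 5568688 to 5597802), measured 3.44, 3.90 and 3.92 FPKM in the DMSO replicates and 4.68, 4.64 and 4.57 FPKM in the 6PPD replicates. The lowest 6PPD library lay above the highest DMSO library. Mean levels were 3.76 ± 0.27 FPKM for DMSO and 4.63 ± 0.055 FPKM for 6PPD (SD, n = 3 per group). The log2 fold change of vegfab was 0.25 ± 0.11 (SE), with a 95% interval from -0.00056 to 0.49, and it did not pass the test (limma adjusted p = 0.246). With this standard error a log2 fold change of 0.47 would have been needed. Its unadjusted p was 0.0504 and was under 0.05, and as low as 0.0279, under 6 of the other settings, among them a fit without DMSO replicate 3 (log2 fold change 0.27, limma adjusted p = 0.149). In that fit 4518 of the 15320 genes tested had an unadjusted limma p under 0.05. The log2 fold change of vegfab was lower after median-ratio scaling (0.18), quantile normalization (0.17) and cyclic loess (0.16), with unadjusted limma p of 0.114, 0.140 and 0.157.

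The share of vegfab in the VEGF-A pair was 39.8%, 37.4% and 38.2% in DMSO replicates 1 to 3 and 45.5%, 42.7% and 45.5% in 6PPD replicates 1 to 3. All 3 6PPD shares lay above all 3 DMSO shares. A ratio within a library does not depend on scaling by 1 factor per library. Quantile normalization and cyclic loess can move genes of different levels by different amounts, and the ratios were not computed after them. The log2 ratio of vegfab to vegfaa was -0.68 ± 0.07 in DMSO and -0.31 ± 0.10 in 6PPD (SD, n = 3), a difference of 0.36 with p = 0.1 in an exact two-sided permutation test. This is the smallest p that this test can give with 3 against 3 libraries, so it cannot reach 0.05 here. Adjusted over the 4 ratios tested, the exact permutation p was 0.2. The sum of vegfaa and vegfab averaged 9.78 ± 0.99 FPKM for DMSO and 10.4 ± 0.42 FPKM for 6PPD (SD, n = 3). The groups overlapped.

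The ligand genes vegfc and vegfd were low. The gene vegfc (ENSDARG00000069640, chromosome 1, 38850830 to 38908197), which drives venous and lymphatic sprouting through Flt4, measured 1.21, 1.84 and 1.98 FPKM in DMSO and 2.17, 1.99 and 2.08 FPKM in 6PPD. The groups did not overlap, but the highest DMSO and the lowest 6PPD library were close to each other. Its log2 fold change was 0.22 ± 0.15 (SE; 95% interval -0.11 to 0.55, limma adjusted p = 0.438). Leaving out DMSO replicate 1, the lowest library, brought it to 0.08, cyclic loess to 0.12 and a pseudocount of 0.1 to 0.33. The gene CU915762.1, which overlaps vegfc on the opposite strand, measured 0.00988 FPKM on average.

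The related ligand gene vegfd (ENSDARG00000056624, chromosome 11, 29889828 to 29916607) varied most within the groups. It measured 0.362, 1.21 and 0.292 FPKM in DMSO and 0.138, 0.423 and 1.14 FPKM in 6PPD. Each group held 1 library near 1 FPKM, and the coefficient of variation was 82.2% in DMSO and 90.9% in 6PPD. Its mean over the 6 libraries was below 1 FPKM, so it was not tested. The same holds for vegfba (ENSDARG00000090997, chromosome 14, 8504410 to 8573479), an ortholog of VEGF-B, which in mammals binds Flt1. It measured 0.288, 0.242 and 0.449 FPKM in DMSO and 0.270, 0.332 and 0.275 FPKM in 6PPD, with overlapping groups. With no filter on low values neither gene was called (limma adjusted p = 0.947 for vegfd and 0.834 for vegfba).

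Among the receptors, kdrl (ENSDARG00000105215, chromosome 14, 32983769 to 33044955), the main VEGFR2-type receptor of zebrafish endothelium, was the highest. It measured 5.75, 5.41 and 6.78 FPKM in DMSO and 6.40, 7.00 and 7.37 FPKM in 6PPD. Only DMSO replicate 3 reached into the 6PPD range, lying above 6PPD replicate 1. The log2 fold change of kdrl was 0.19 ± 0.11 (SE), with a 95% interval from -0.07 to 0.44 (limma adjusted p = 0.390). It was 0.27 without DMSO replicate 3 (adjusted p = 0.144) and 0.13 without DMSO replicate 2 (adjusted p = 0.675), and 0.11 after median-ratio scaling or cyclic loess.

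The second VEGFR2-type gene, kdr (ENSDARG00000017321, chromosome 20, 22220988 to 22277544), measured 1.07, 0.765 and 1.06 FPKM in DMSO and 1.11, 1.52 and 1.57 FPKM in 6PPD. The groups did not overlap in FPKM as deposited. The gap between DMSO replicate 1 and 6PPD replicate 1 was small beside the SDs of 0.174 FPKM in DMSO and 0.256 FPKM in 6PPD. Its DMSO mean of 0.966 FPKM was below the filter value, so kdr passed the filter only through its 6PPD libraries. Its log2 fold change was 0.28 ± 0.15 (SE; 95% interval -0.04 to 0.61, limma adjusted p = 0.303). It became 0.49 with a pseudocount of 0.1 (adjusted p = 0.313), and 0.19 after quantile normalization (adjusted p = 0.500) or cyclic loess (adjusted p = 0.485). The log2 ratio of kdr to kdrl was -2.64 ± 0.20 in DMSO and -2.32 ± 0.18 in 6PPD (SD, n = 3). The groups of this ratio overlapped (exact permutation p = 0.2, two-sided, 0.267 adjusted over the 4 ratios).

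The receptor gene flt1 (ENSDARG00000019371, chromosome 24, 21750810 to 21808819) measured 2.23, 2.02 and 2.37 FPKM in DMSO and 1.97, 2.73 and 2.02 FPKM in 6PPD. The 6PPD libraries held both the highest and the lowest value. Its log2 fold change of 0.01 ± 0.14 (SE; 95% interval -0.30 to 0.32, limma adjusted p = 0.976) turned negative after median-ratio scaling (-0.05), quantile normalization (-0.08) and cyclic loess (-0.08). A value per gene does not separate transcripts for the soluble and the membrane form of Flt1. The linear ratio of flt1 to kdrl was 0.388, 0.373 and 0.349 in DMSO and 0.309, 0.389 and 0.275 in 6PPD. The groups overlapped (exact permutation p = 0.4, two-sided, 0.4 adjusted over the 4 ratios).

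The VEGFR3 gene flt4 (ENSDARG00000104453, chromosome 14, 15816509 to 15956921) measured 2.73, 2.64 and 3.21 FPKM in DMSO and 2.98, 2.11 and 2.76 FPKM in 6PPD. Its groups overlapped, with a log2 fold change of -0.10 ± 0.14 (SE; 95% interval -0.41 to 0.21, limma adjusted p = 0.716). Set against kdrl, flt4 was almost constant among the controls, with ratios of 0.474, 0.488 and 0.473, and lower in 6PPD at 0.466, 0.302 and 0.374. The highest 6PPD ratio, in replicate 1, lay just below the lowest DMSO ratio. The difference of the log2 ratios was -0.35, with the smallest p that the exact permutation test can give here (0.1, two-sided, and 0.2 adjusted over the 4 ratios). Without 6PPD replicate 2 the difference was -0.20. The ratio of vegfc to flt4, computed after the values were seen, was 0.443 to 0.698 in DMSO and 0.729 to 0.944 in 6PPD, without overlap. Other ratios computed in the same way overlapped. That of the summed ligand to the summed receptor FPKM was 0.891 to 1.27 in DMSO and 0.986 to 1.03 in 6PPD. The ratios of nrp1a to the receptor sum and of kdrl to cdh5, pecam1 and tie1 also overlapped. None of these ratios was tested, and several share the same genes.

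**Figure D2:**
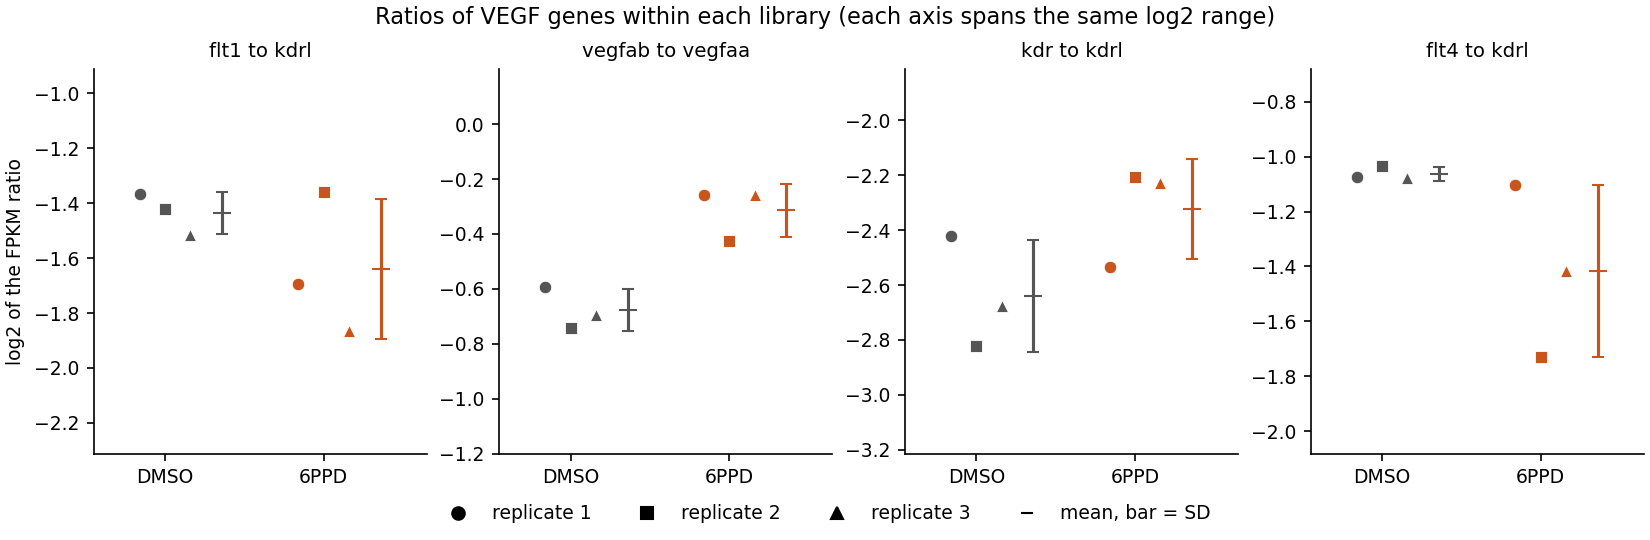
Log2 of the FPKM ratio of 4 pairs of VEGF genes within each library (vertical axes, all spanning the same range), by group; symbols are replicates, and bars the mean and SD of 3 libraries. The ratios of vegfab to vegfaa and of flt4 to kdrl do not overlap between groups, and those of flt1 to kdrl and kdr to kdrl do.

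The co-receptor gene nrp1a (ENSDARG00000102153, chromosome 24, 1162325 to 1356668) encodes a neuropilin that presents VEGF-A to its receptors on endothelium and also serves semaphorins on growing axons. It measured 19.9, 16.1 and 23.1 FPKM in DMSO and 21.6, 20.8 and 23.1 FPKM in 6PPD. DMSO replicate 3 was about as high as the highest 6PPD library, and the groups overlapped. Its log2 fold change was 0.16 ± 0.12 (SE; 95% interval -0.12 to 0.43, limma adjusted p = 0.500). Leaving out DMSO replicate 3 brought it to 0.27 (adjusted p = 0.136), and leaving out DMSO replicate 2, the lowest library, to 0.02. Median-ratio scaling gave 0.08. Of the 10 neuron markers listed, limma called 2, elavl3 and snap25a, both higher, beside 3.41% of all genes tested. The log2 fold change was above 0 in 6 of the 10, where the median of all genes tested was 0.06. The neuron markers summed to 999.6 to 1061 FPKM over DMSO libraries and 986 to 1046 FPKM over 6PPD libraries, none at 0, and their part in the nrp1a level was not tested. An opposite-strand gene that overlaps nrp1a measured 0.185 FPKM on average.

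Library by library, DMSO replicate 3 had the highest value of its group in 7 of the 10 genes, and DMSO replicate 2 the lowest in 6. These counts are on FPKM as deposited. The factor of median-ratio scaling was likewise highest in DMSO replicate 3 (1.05) and lowest in DMSO replicate 2 (0.937), with 0.951 for DMSO replicate 1. Coefficients of variation within a group ran from 1.19% (vegfab in 6PPD) to 24.5% (vegfc in DMSO) in the 8 tested genes. At the standard errors of these genes (0.11 to 0.15), a log2 fold change of 0.47 to 0.64 would have been called. The observed ones ran from -0.10 to 0.28, with 6 above and 2 below 0. Their median was 0.17, beside 0.06 for all genes tested, and the member kdr passed the filter only through its 6PPD level.

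**Figure D3:**
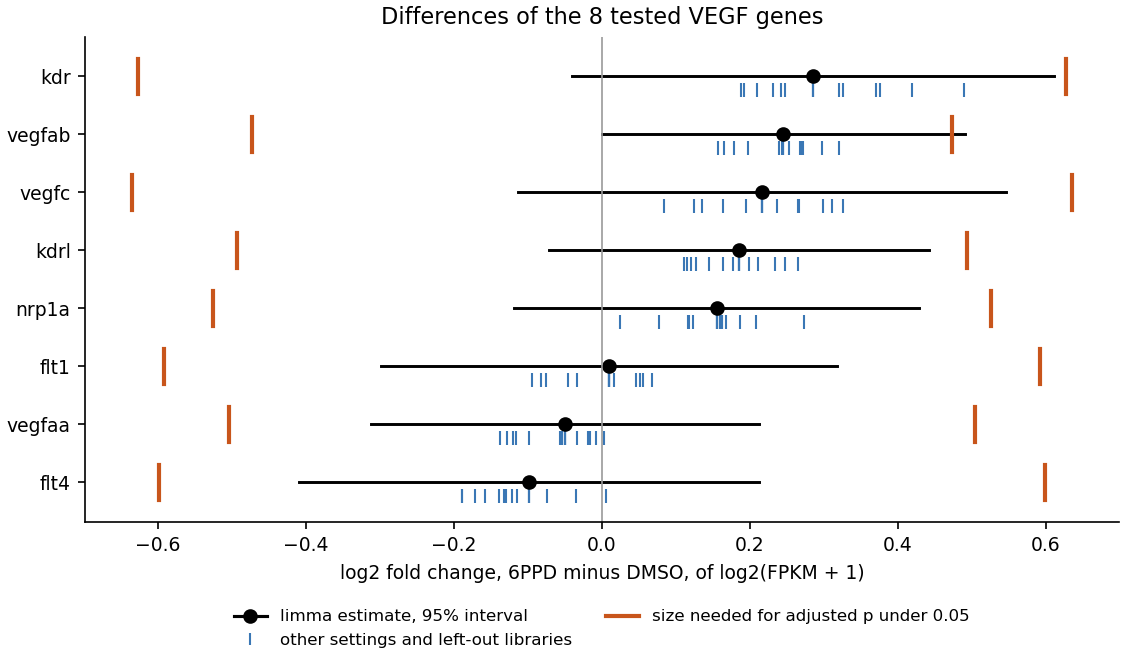
Log2 fold change of log2(FPKM + 1), 6PPD minus DMSO (horizontal axis), for the 8 tested VEGF genes; dots and lines are limma estimates with 95% intervals, blue ticks the estimates under other settings or without 1 library, and orange bars the size that would have been called. All 8 estimates lie inside their orange bars, and the intervals of all 8 include 0.

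Levels of the receptor genes were also set against 19 tested endothelial markers, such as cdh5, tie1 and clec14a, a description chosen after the values were seen. The mean log2 FPKM of these markers was 2.50, 2.44 and 2.73 in DMSO replicates 1 to 3 and 2.81, 2.70 and 2.77 in 6PPD replicates 1 to 3. Of these libraries DMSO replicate 3 overlapped the 6PPD group. Relative to this mean, kdrl lay at -0.01 to 0.03 log2 units in DMSO and at -0.14 to 0.12 in 6PPD, and flt1 at -1.48 to -1.34 in DMSO and -1.83 to -1.25 in 6PPD. In both genes the 6PPD libraries spread around the DMSO values. The relative level of kdr was -2.83 to -2.40 in DMSO and -2.67 to -2.09 in 6PPD, with overlapping groups. The relative level of flt4 was -1.05 to -1.04 in DMSO and -1.62 to -1.24 in 6PPD, and these groups did not overlap. Among the marker genes 1 of 19 was called, beside 3.41% of all genes tested. This gene was plvapb, which encodes a protein of the diaphragms of fenestrated vessels. It fell, with 13.4, 15.7 and 14.5 FPKM in DMSO and 11.2, 10.2 and 10.7 FPKM in 6PPD (log2 fold change -0.40 ± 0.09, SE, limma adjusted p = 0.0489). The call was lost without DMSO replicate 2 or 3 and without any single 6PPD replicate, with adjusted p between 0.0524 and 0.160. The endothelial markers had a median log2 fold change of 0.17, with 15 of 19 above 0, beside a median of 0.06 for all genes tested. The median of all genes tested was -0.0067 after median-ratio scaling, so counts above 0 depend on the scaling. At an unadjusted limma p under 0.05, 2 were higher, ptprb (log2 fold change 0.54) and cldn5a (0.50), and 1 lower, plvapb. Of all genes tested 20.3% had such a p.

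Of the other VEGF family ligands and neuropilins, 5 were in the table and 3 were tested, all neuropilins, with 0 called by limma and 0 at an unadjusted p under 0.05. The shares among all genes tested were 3.41% and 20.3%. The neuropilin genes nrp2b, at 34.4 ± 2.27 FPKM for DMSO and 36.9 ± 2.45 FPKM for 6PPD, and nrp1b, at 5.17 ± 0.91 and 5.77 ± 0.40 FPKM, were measured in overlapping groups (SD, n = 3; limma adjusted p = 0.527 and 0.558). The ligand genes vegfbb and pgfb were below 0.4 FPKM in every library and not tested, and vegfbb was listed at 0 in DMSO replicate 1 and all 6PPD libraries. Of 9 genes for the maturation of VEGF-C and VEGF-D, 5 were tested and 0 called by limma (0 at an unadjusted p under 0.05). The proprotein convertase genes pcsk5b (log2 fold change 0.17) and furinb (0.10) had the smallest p. The gene ccbe1, whose product is a cofactor for cleavage of VEGF-C, measured 0.745 to 0.991 FPKM over all libraries, below the filter.

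Single genes of VEGF signalling around the receptors were called, beside 3.41% of all genes tested. Of 46 tested genes of signal relay downstream of the receptors, rcan1a rose, from 28.3 ± 2.57 to 37.9 ± 2.32 FPKM (SD, n = 3; log2 fold change 0.41 ± 0.09, SE, limma adjusted p = 0.0423). Its product inhibits the phosphatase calcineurin, and in human endothelial cells RCAN1 is induced by VEGF. Whether the rise of rcan1a in these heads came from endothelial cells was not tested. The call on rcan1a was lost without DMSO replicate 1 or 2 and without any single 6PPD replicate, with adjusted p from 0.0728 to 0.153. It was also lost after median-ratio scaling (adjusted p = 0.0876). In this group 7 genes were higher and 1 lower at an unadjusted p under 0.05, where 20.3% of all genes tested had such a p, and the median log2 fold change was 0.06, as for all genes tested.

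Of 10 tested partners that control receptor phosphorylation, uptake or ligand binding, limma called 0, and 3 had an unadjusted p under 0.05, all higher, beside 3.41% and 20.3% of all genes tested. The phosphatase gene ptprb, whose product (VE-PTP) acts on endothelial receptors and junctions, measured 1.87, 1.84 and 2.66 FPKM in DMSO and 3.54, 3.39 and 3.62 FPKM in 6PPD (log2 fold change 0.54, limma adjusted p = 0.0683). The heparan sulfate proteoglycan gene sdc2 averaged 16.5 ± 2.73 FPKM in controls and 23.1 ± 1.73 FPKM in treated heads (SD, n = 3; log2 fold change 0.47, limma adjusted p = 0.0717). In both genes the groups did not overlap.

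Hypoxia-inducible factors activate VEGF-A genes when oxygen is low. Of 12 tested genes of these factors and their regulators, egln3 rose, an oxygen-dependent prolyl hydroxylase gene that these factors induce. It measured 0.671, 0.984 and 1.35 FPKM in DMSO and 3.52, 4.21 and 1.83 FPKM in 6PPD (log2 fold change 1.03 ± 0.23, SE, limma adjusted p = 0.0424). The groups did not overlap, although 6PPD replicate 3 was much nearer to the controls than the other two. The call on egln3 was lost without DMSO replicate 1 or 2 or 6PPD replicate 1 or 2, with adjusted p from 0.102 to 0.153, and after cyclic loess (adjusted p = 0.0518). Without 6PPD replicate 3 the log2 fold change was 1.29. Of the 12 genes 4 had an unadjusted p under 0.05, all higher, beside 20.3% of all genes tested.

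Among 15 tested transcription factors of endothelial receptor genes, 0 were called by limma, with 2 higher and 1 lower at an unadjusted p under 0.05. For this list and those below, 3.41% of all genes tested were called and 20.3% had such a p. The smallest p were those of mef2ca (log2 fold change -0.31) and the ETS factor gene fli1b (0.30). Arterial and tip cell markers (9 tested), venous and lymphatic markers (8 tested) and mural cell markers (7 tested) also had 0 calls by limma, with 0, 1 and 1 genes at an unadjusted p under 0.05. The apelin gene apln, expressed by tip cells, had a log2 fold change of 0.26 and the ephrin gene efnb2a 0.17. The lymphatic regulator gene prox1a, also active in neurons and lens, stood at 0.29 and the mannose receptor gene mrc1a at 0.19. Of the mural genes pdgfrb was at 0.43 and notch3 at 0.16. In these 6 genes limma adjusted p ran from 0.148 (prox1a) to 0.501 (notch3).

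**Figure D4:**
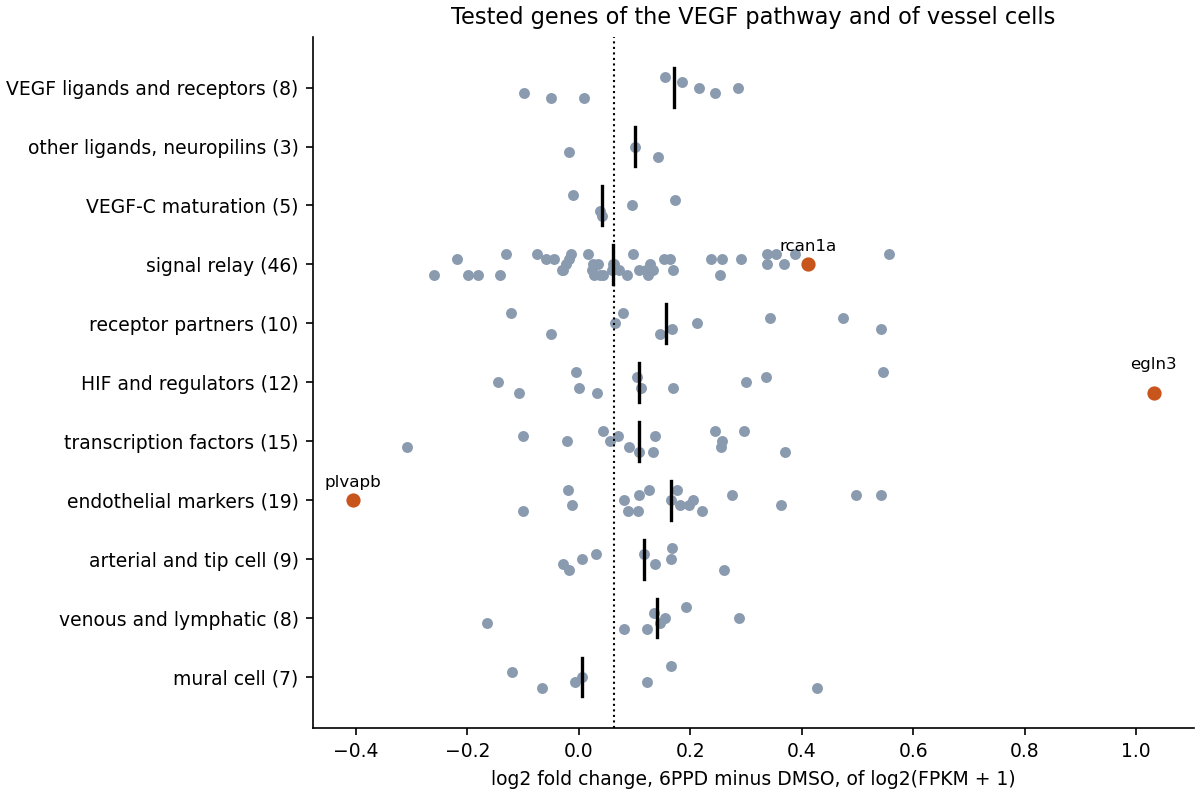
Log2 fold change of log2(FPKM + 1), 6PPD minus DMSO (horizontal axis), of each tested gene in the VEGF, pathway and vessel cell groups, with the number tested in brackets; orange dots are called genes, black bars group medians, and the dotted line the median of all genes tested (0.06). The called genes are rcan1a and egln3, which were higher, and plvapb, which was lower.

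For likeness of pattern, the log2(FPKM + 1) values of each gene were centred on their mean over the 6 libraries and compared by root mean square difference. Nearest to kdrl among the 15320 genes were nipblb and eaf2, each at 0.025 log2 units, and nearest to vegfaa were fzr1b, susd4 and hmx4, at 0.025 to 0.026. The median difference over all genes was 0.18 for kdrl and 0.19 for vegfaa. With 6 libraries and so many genes, close matches of this kind are a description of these libraries.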

How the data were processed

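The authors deposited 1 table of FPKM for 32057 genes, with 1 column per library, gene symbols, positions and lengths; GRCz11 and the tools HISAT2, StringTie, featureCounts and fastp are listed in the submitters' processing notes, with neither versions nor roles. Libraries were strand-specific by the dUTP method, per the labels' protocols; the sources used here do not give whether counting used strand. Samples were grouped by the treatment in their labels, and p-values measure the spread between 3 pooled replicates per group. Whole fragments could not be recovered: at best 26.3% to 28.7% of low values of FPKM times length were whole multiples of a step (tolerance 0.1), where 20% arises by construction, so no count model was used. FPKM summed to 434258 to 472121 per library, and libraries of a group correlated at 0.982 to 0.992 (log2 values).

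Genes averaging 1 FPKM or more were tested with limma 3.58.1 in R 4.3.3 (intensity trend, prior degrees of freedom 5.56, residual 4), on log2(FPKM + 1), without covariates. Data were simulated for the same 15320 genes, with independent normal noise at limma's moderated variances. In them limma called 99% of 100 genes changed by 1 log2 unit and 32% of 100 changed by 0.5. Of 140 calls 9 were false, and 0 genes were called with no change simulated. The simulation held no library set apart as DMSO replicate 3 was, so these shares may differ in the real libraries. Ratios were tested by exact permutation. The members and lists were chosen with earlier results of these data known. Named were all 10 members, called genes of each list or else its 2 genes with the smallest p, and, chosen after values were seen, single markers, ccbe1, vegfbb and pgfb. The result of 1 gene is not reported here. Proteins and promoters of the genes were not used here. Alternatives were the pseudocount, the filter, TPM, median-ratio and quantile scaling, a replicate block, no intensity trend, leaving out each library and, chosen after seeing the data, cyclic loess.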

Additional observations from a re-analysis of the deposited data

How the results depend on the processing

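No VEGF gene was called by limma under any setting run (147 values over the 10 genes, those of vegfba and vegfd mostly without a test, limma adjusted p from 0.136 to 0.996), and the number of VEGF genes called was 0 in each. Unadjusted limma p fell under 0.05 for vegfab in some settings and for kdr only without the intensity trend. For kdrl and nrp1a it did so only without DMSO replicate 3. Of the 15320 genes tested, 3016 had such a p without the trend and 4518 without DMSO replicate 3, beside 3113 in the main fit. The log2 fold change of flt1 reversed to -0.046 after median-ratio scaling, -0.076 after quantile normalization and -0.082 after cyclic loess. Leaving out 1 library moved it between -0.095 and 0.068, that of vegfaa between -0.14 and 0.0023 and that of flt4 between -0.17 and 0.0059. The values of vegfba (-0.035) and vegfd (-0.055), not tested, also changed sign. They moved between -0.080 and 0.030 for vegfba and between -0.30 and 0.19 for vegfd. The 4 ratios kept their direction in the settings run, and a difference of kdr to kdrl of 0.32 was 0.10 with a pseudocount of 1. Same-numbered replicates did not all deviate together from their group means (correlations 0.030, 0.18 and -0.026 for numbers 1 to 3). The correlation for number 2 was the largest of any pair, but DMSO replicate 1 correlated best with 6PPD replicate 3 (0.17). The numbers were therefore not taken as pairs. With the replicate number as a block, 455 genes were called in place of 522, and the log2 differences of the ratios (-0.20 for flt1 to kdrl, 0.36 for vegfab to vegfaa, 0.32 for kdr to kdrl and -0.35 for flt4 to kdrl) are the same by construction. The exact sign-flip p over the 3 pairs was 0.5 (flt1 to kdrl), 0.25 (vegfab to vegfaa), 0.5 (kdr to kdrl), 0.25 (flt4 to kdrl), where 0.25 is the smallest it can give. Calls over all genes numbered 26 with no filter on low values, where 26983 genes were tested, and 335 without the intensity trend (the cause was not tested). Leaving out 1 library gave 170 (without DMSO replicate 2, and without 6PPD replicate 3) to 1134 (without DMSO replicate 3), with 185 without 6PPD replicate 1 and 211 without 6PPD replicate 2. The calls on egln3, plvapb and rcan1a were also lost with no filter (limma adjusted p = 0.165, 0.104 and 0.115), with the replicate block (0.0649, 0.0825 and 0.0758) and without the trend (0.0600, 0.0772 and 0.0908), and that on plvapb after rescaling to TPM (0.105). Genes vegfba and vegfd have no value with the 5 FPKM filter, quantile normalization or cyclic loess, and were tested with no filter alone. Read depth is unknown, which limits what can be said of genes near or below 1 FPKM.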
